A study of Mus musculus with 8 samples.

Results

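TGFβ ligands, receptors, SMADs and the SKI proteins that restrain them were measured in CD8+ T cells sorted from lymph nodes (LN) or tumors of mice that were irradiated or not. The genes were chosen by symbol: *Tgfb1* and *Tgfb3* (ligands), *Tgfbr1* and *Tgfbr2* (receptors), *Smad2*, *Smad3*, *Smad4* and *Smad7* (SMADs), and *Ski* and *Skil* (corepressors). All 10 were on the array, of 18193 genes in all. The cells were CD3+CD8+CD44+CD62L- T cells from C57BL/6 female mice aged 6 to 8 weeks, all of which carried subcutaneous MC38 tumors, a mouse colon carcinoma line. The 4 groups of 2 arrays are T cells of LN or of tumor, each from mice with IR or without it. IR was a dose of 5 Gy given to the whole body 5 h before the cells were taken, and the other mice received none. Each array holds the pooled cells of 4 mice, and within an experiment the tumor and LN pools came from the same mice. The 2 arrays of a group stand for 2 experiments, but no source used here ties a replicate number to an experiment. Tumors were digested with enzymes and LN were only disrupted mechanically, so tissue and preparation cannot be told apart.

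TGFβ is secreted in a latent form and has to be released before it can bind its receptor. The type II receptor then phosphorylates the type I receptor, which phosphorylates SMAD2 and SMAD3, and these enter the nucleus with SMAD4. SMAD7 blocks the type I receptor, while SKI and SKIL (also called SnoN) hold SMAD-bound genes in check. In CD8+ T cells TGFβ is known to limit effector function and to favor tissue residency.

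Values are log2 intensities as deposited by the authors, and each gene is read by its brightest probe set unless another is named. The T cell identity of the sort was plain in both tissues, with 11 measured T cell markers averaging 11.28 to 11.74 in LN and 11.11 to 11.44 in tumor, and markers of other cell types were also present. The mean of 18 measured macrophage and monocyte markers was 6.20 to 6.67 on LN arrays and 8.68 to 10.86 on tumor arrays, and 16 of the 18 were higher in tumor without IR and 14 with IR. For 13 fibroblast markers the mean was 5.86 to 6.15 in LN and 8.15 to 8.77 in tumor, with 8 higher without IR and 9 with IR, although *Lum* and *Fap* lay under the lower quartile on all 4 tumor arrays. The 7 measured B cell markers averaged 7.72 to 8.47 in LN and 6.34 to 6.57 in tumor, with 4 lower in tumor without IR, 3 with IR and 5 in the mean. Of the 11 T cell markers 0 changed between tissues with IR, without IR or in the mean. In the mean 9 of the 11 were below 0, with a median of -0.17 where that of all genes was -0.02. A limma adjusted p under 0.1, with no fold limit, was reached by 3 of them in the mean, beside 19.7% of all genes. In pooled material fewer cells of a type and less RNA per cell cannot be told apart. LN IR replicate 2 stood farthest from the other arrays of its tissue, with a median correlation of 0.964 against 0.977 to 0.982 for the other LN arrays. A level below the lower quartile of its array, which was 5.38 to 5.59, could be background alone.

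Between tumor and LN T cells, the ligand gene *Tgfb3* was higher in tumor with and without IR, *Smad3* was lower in tumor, and *Skil* had higher values in tumor. A gene is said to have changed where limma gave an adjusted p under 0.1 and a log2 difference of at least 1 in size. By that rule 1 of the 10 genes changed without IR (*Tgfb3*), beside 5.54% of all genes. With IR 2 of the 10 changed (*Tgfb3* and *Smad3*), beside 6.8% of all genes, and in the mean over both IR states 1 changed (*Tgfb3*), beside 6.62%. The adjusted p alone was passed by 3 of the 10 in each of these comparisons, namely *Tgfb3*, *Smad3* and *Skil*, against 8.32% of all genes without IR, 12.9% with IR and 19.7% in the mean. The median difference of the 10 genes was 0.33 without IR, where that of all genes was -0.09, and 0.33 with IR, where that of all genes was 0.06. On 3 of the 10 genes all 4 tumor arrays lay apart from all 4 LN arrays, which holds for 17.7% of all genes.

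**Figure D1:**
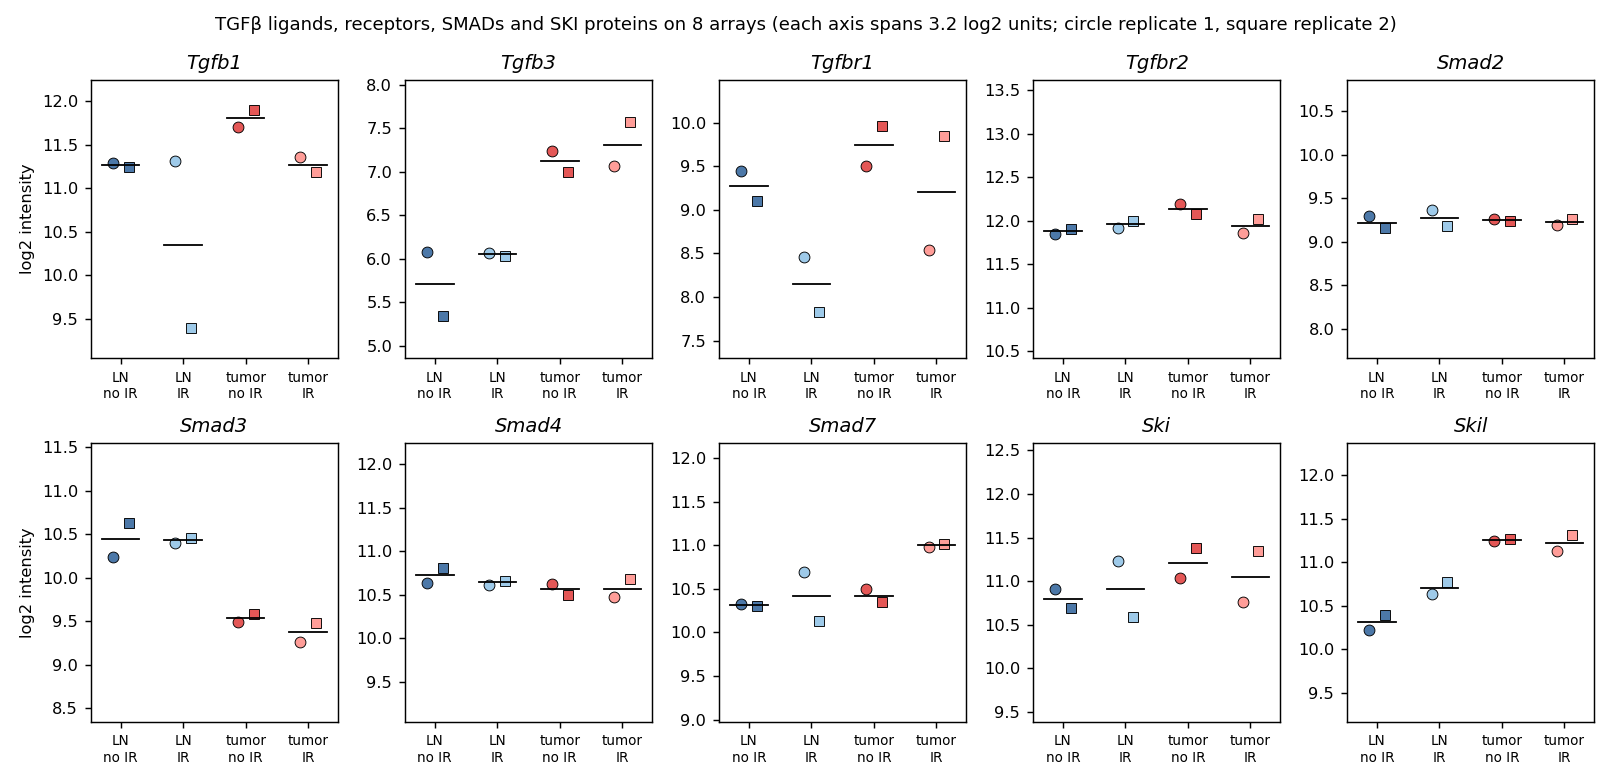
Log2 intensity (y axis) of the main probe set of each of the 10 genes on 8 arrays in 4 groups (x axis). Circles are replicate 1, squares replicate 2 and lines group means. *Tgfb3* and *Skil* lie higher and *Smad3* lower on all tumor arrays than on any LN array, and *Tgfb1* has 1 LN IR array at 9.39.

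Among the ligands, *Tgfb3*, one of the TGFβ isoforms, has 1 probe set. It read 6.08 and 5.34 in LN without IR, 6.07 and 6.03 in LN with IR, 7.24 and 7.00 in tumor without IR, and 7.06 and 7.57 in tumor with IR. The tissues did not overlap, the spread was widest in LN without IR, and 1 LN array lay under the lower quartile, so the size of the fold is not exact. The log2 difference was 1.41 without IR (95% interval 0.76 to 2.06, limma adjusted p = 0.0313), 1.26 with IR (0.61 to 1.91, adjusted p = 0.0383) and 1.34 in the mean (adjusted p = 0.00523). Without IR *Tgfb3* no longer passed if LN no IR replicate 2 was left out (1.04, adjusted p = 0.127), or tumor no IR replicate 1 (1.29, adjusted p = 0.203) or replicate 2 (1.53, adjusted p = 0.152). With IR it no longer passed without tumor IR replicate 2 (1.01, adjusted p = 0.248), while in the mean it passed without any 1 array. On the tumor arrays, in the same order as above, the macrophage markers averaged 10.01, 10.86, 8.68 and 10.08 and the fibroblast markers 8.41, 8.15, 8.69 and 8.77. Their part in the *Tgfb3* difference was not tested.

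*Tgfb1*, the main TGFβ isoform of immune cells, read 11.29 and 11.24 in LN without IR, 11.31 and 9.39 in LN with IR, 11.70 and 11.90 in tumor without IR, and 11.36 and 11.19 in tumor with IR. A single array, LN IR replicate 2, was low, and the tissues overlapped. The 2 LN IR arrays differed by 1.92, a gap that 1.07% of genes reach or exceed. Tumor minus LN was 0.53 without IR (limma adjusted p = 0.671) and 0.93 with IR (adjusted p = 0.351). The value with IR depended on that array: it was -0.04 without LN IR replicate 2 (adjusted p = 0.936) and 1.89 without LN IR replicate 1 (adjusted p = 0.00147).

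The other probe set of *Tgfb1* did not show the low array. It read 7.38 and 7.11 in LN without IR, 7.15 and 7.22 in LN with IR, 8.07 and 8.34 in tumor without IR, and 8.04 and 7.71 in tumor with IR. All 4 tumor arrays were above all 4 LN arrays. Its difference passed the adjusted p and stayed under the fold limit, at 0.97 without IR (limma adjusted p = 0.0282), 0.69 with IR (adjusted p = 0.069) and 0.83 in the mean (adjusted p = 0.00698).

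Among the receptors, *Tgfbr2*, the type II receptor that binds the ligand first, varied by 0.33 over the 8 arrays. It read 11.85 and 11.91 in LN without IR, 11.92 and 12.00 in LN with IR, 12.19 and 12.08 in tumor without IR, and 11.86 and 12.02 in tumor with IR. The tissues overlapped. Without IR the difference between tumor and LN was 0.25 (95% interval -0.08 to 0.58) and -0.01 with IR (-0.35 to 0.32), so both intervals lie within the fold limit. A second probe set gave 0.41 (limma adjusted p = 0.335) and -0.17 (adjusted p = 0.663), and the third was under the lower quartile on all 8 arrays.

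*Tgfbr1*, the type I receptor kinase that phosphorylates the SMADs, varied more. It read 9.45 and 9.10 in LN without IR, 8.46 and 7.83 in LN with IR, 9.51 and 9.96 in tumor without IR, and 8.54 and 9.85 in tumor with IR. The tissues overlapped, and the 2 tumor IR arrays differed by 1.31, a gap that 0.506% of genes reach or exceed. Tumor minus LN was 0.46 without IR (limma adjusted p = 0.65) and 1.05 with IR (adjusted p = 0.197). With IR it passed if tumor IR replicate 1 was left out (1.71, adjusted p = 0.0858), and was 0.40 without tumor IR replicate 2 (adjusted p = 0.687). It also passed by a robust fit (1.05, adjusted p = 0.0739). The second probe set gave -0.14 without IR (adjusted p = 0.881) and 0.38 with IR (adjusted p = 0.597), and the third 0.64 (adjusted p = 0.575) and 0.77 (adjusted p = 0.412), so without IR the probe sets differed in sign. In tumor IR the macrophage markers averaged 8.68 on replicate 1, where *Tgfbr1* was low, and 10.08 on replicate 2, and their part was not tested.

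*Smad3*, a receptor-activated SMAD, was the SMAD gene that changed between tissues. It read 10.24 and 10.63 in LN without IR, 10.40 and 10.46 in LN with IR, 9.49 and 9.58 in tumor without IR, and 9.26 and 9.48 in tumor with IR. The tissues did not overlap. Tumor minus LN was -1.06 with IR (95% interval -1.48 to -0.65, limma adjusted p = 0.0156), which passed both limits. Without IR it was -0.90 (-1.31 to -0.48, adjusted p = 0.0313) and in the mean -0.98 (adjusted p = 0.00294), both short of the fold limit. The call with IR was lost without tumor IR replicate 1 (-0.95, adjusted p = 0.117) and when the arrays were scaled to T cell genes (-0.85, adjusted p = 0.0442), and without IR *Smad3* passed both limits if LN no IR replicate 1 was left out (-1.09, adjusted p = 0.0365). In the mean it passed both without LN no IR replicate 1 (-1.08), tumor IR replicate 2 (-1.03) or tumor no IR replicate 2 (adjusted p = 0.0185).

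The other 2 probe sets of *Smad3* were also lower on all 4 tumor arrays than on any LN array. The second read 8.91, 9.46, 9.44 and 9.43 on the LN arrays and 8.36, 8.51, 8.32 and 8.43 on the tumor arrays, and the third 8.77, 9.22, 9.22 and 9.09 against 8.22, 8.23, 8.22 and 8.28. With IR their differences were -1.06 (limma adjusted p = 0.024) and -0.90 (adjusted p = 0.0281), and without IR -0.75 (adjusted p = 0.0897) and -0.77 (adjusted p = 0.0573). The 3 probe sets gave the same direction in both IR states, and they share the arrays and their RNA. The B cell marker means were 7.72, 8.47, 7.89 and 7.75 on the LN arrays and 6.57, 6.34, 6.35 and 6.48 on the tumor arrays, so they too were lower on all tumor arrays, and their part in the *Smad3* difference was not tested.

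**Figure D2:**
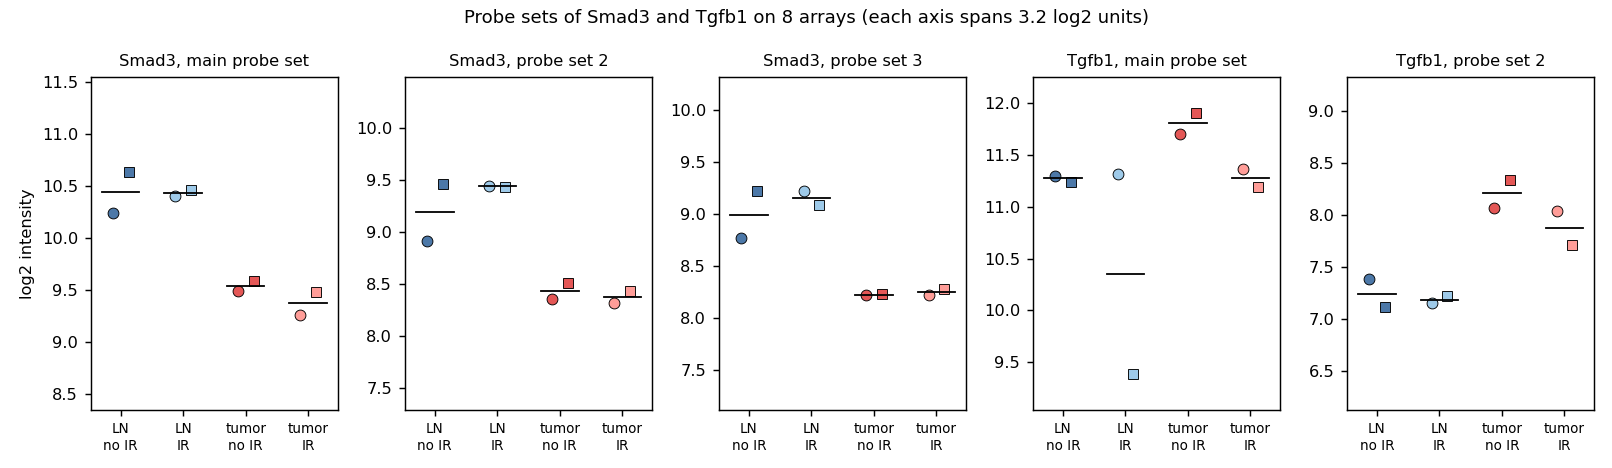
Log2 intensity (y axis) of the 3 probe sets of *Smad3* and the 2 of *Tgfb1* on 8 arrays in 4 groups (x axis), with circles for replicate 1, squares for replicate 2 and lines for group means. All 3 *Smad3* probe sets are lower on the tumor arrays, and the low LN IR array of *Tgfb1* appears on its main probe set and not on the other.

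The DNA before the *Smad3* start is shown because it is the SMAD gene that changed. RefSeq promoters of GRCm38.p6 were examined for 5 of the 10 genes (*Ski*, *Smad3*, *Tgfb1*, *Tgfbr1* and *Tgfbr2*). This count does not say that the other genes lack one. The 250 bases before the start of *Smad3* lie at chr9:63757995-63758244 on the minus strand and are printed 5′ to 3′, with capitals for GGGCGG, the GC box that Sp1 family factors bind.

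Smad3 promoter: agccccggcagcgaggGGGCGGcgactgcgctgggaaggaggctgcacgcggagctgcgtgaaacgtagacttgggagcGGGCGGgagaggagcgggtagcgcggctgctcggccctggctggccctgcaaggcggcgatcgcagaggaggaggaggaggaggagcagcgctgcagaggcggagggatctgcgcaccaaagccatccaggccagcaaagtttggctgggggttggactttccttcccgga

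The window is 69.2% G and C, where the median of 32851 promoter windows of this length is 52.4%. It holds 2 GC boxes, counting GGGCGG and its reverse CCGCCC, and 16.7% of all windows hold at least as many, while 32.7% hold 1 or more. The SMAD-binding letters CAGAC, or GTCTG on the other strand, which do not overlap the GC box, are not in this window and are in 42.2% of all windows. The other windows examined are of genes that did not change between tissues. *Ski* was 87.6% G and C with 5 GC boxes, and *Tgfb1* 75.2% with 5. *Tgfbr1* had 1 window of 74.8% with 2 and another of 52.8% with 0, and *Tgfbr2* was 58.4% with 0. So these letters do not set *Smad3* apart from all of them. The matches describe the letters alone.

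The common partner *Smad4* read 10.63 and 10.81 in LN without IR, 10.61 and 10.66 in LN with IR, 10.62 and 10.49 in tumor without IR, and 10.47 and 10.68 in tumor with IR. The groups overlapped, and tumor minus LN was -0.16 without IR (95% interval -0.52 to 0.20) and -0.06 with IR (-0.42 to 0.30). Its second probe set was lower on all tumor arrays, at 10.25, 10.48, 10.26 and 10.44 in LN against 10.18, 10.07, 9.93 and 9.84, and the mean difference of -0.35 passed the adjusted p (limma adjusted p = 0.0796) and not the fold limit. The third gave -0.39 (adjusted p = 0.211).

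*Smad2*, the other SMAD that the TGFβ receptor activates, read 9.29 and 9.16 in LN without IR, 9.36 and 9.18 in LN with IR, 9.26 and 9.24 in tumor without IR, and 9.19 and 9.26 in tumor with IR. No group stood apart. The tissues differed by 0.03 without IR (95% interval -0.30 to 0.36) and -0.05 with IR (-0.38 to 0.29), intervals of this probe set that lie within the fold limit. Its second probe set was at 9.06 on LN IR replicate 2 and between 7.61 and 8.17 on the other 7 arrays. It differed by 0.08 without IR (-0.75 to 0.91) and by -0.77 with IR (limma adjusted p = 0.238), where the 95% interval reaches past the *Smad3* difference.

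**Figure D3:**
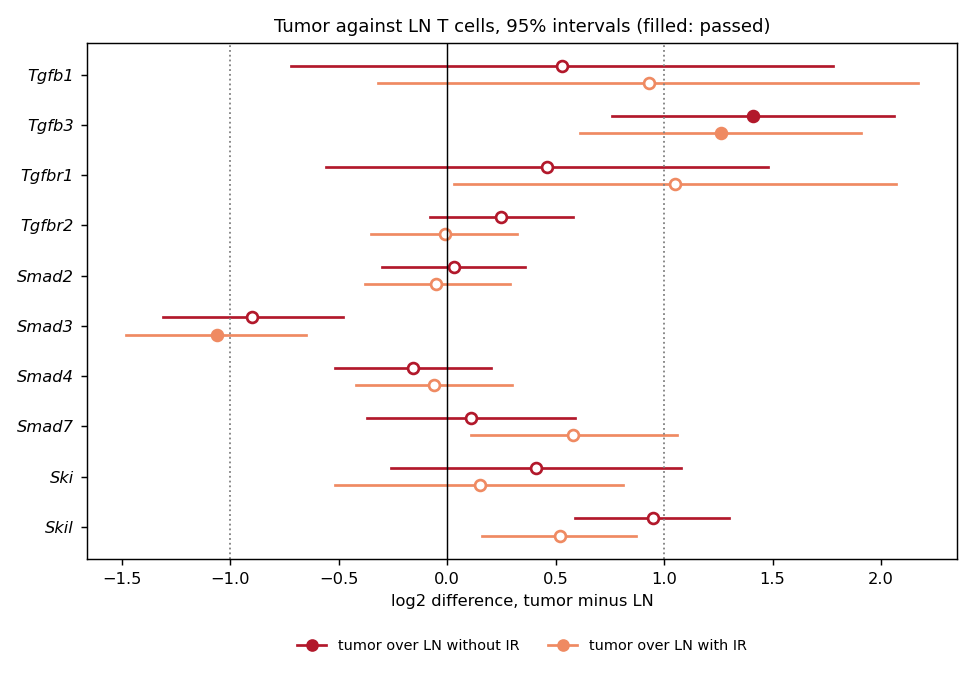
Log2 difference between tumor and LN T cells (x axis) for the 10 genes (y axis), without IR and with IR. Points are limma estimates, bars 95% intervals, filled points passed both limits and dotted lines mark a difference of 1 in size. *Tgfb3* passed in both IR states and *Smad3* with IR.

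Of the inhibitors, *Skil*, the corepressor that TGFβ signaling is known both to degrade and to induce, read 10.22 and 10.40 in LN without IR, 10.64 and 10.77 in LN with IR, 11.24 and 11.27 in tumor without IR, and 11.13 and 11.32 in tumor with IR. All 4 tumor arrays were above all 4 LN arrays. Tumor minus LN was 0.95 without IR (95% interval 0.59 to 1.30, limma adjusted p = 0.0138), 0.52 with IR (adjusted p = 0.0845) and 0.73 in the mean (adjusted p = 0.005), which passed the adjusted p and not the fold limit. Without IR it was 1.04 with LN no IR replicate 2 left out. It passed both limits without IR when the arrays were scaled to T cell genes (1.22, adjusted p = 0.00948). That scaling shifts every gene alike, and the median of all genes moved from -0.09 to 0.19. Its second probe set read 7.19 and 6.93 in LN without IR, 7.69 and 7.46 in LN with IR, 8.15 and 8.23 in tumor without IR, and 8.00 and 8.05 in tumor with IR, and it passed both limits without IR (1.13, adjusted p = 0.00885). With IR this probe set differed by 0.45 (adjusted p = 0.139).

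*Ski*, the related corepressor, read 10.91 and 10.69 in LN without IR, 11.23 and 10.59 in LN with IR, 11.04 and 11.38 in tumor without IR, and 10.76 and 11.35 in tumor with IR. All groups overlapped their neighbors in level. Its difference between tumor and LN was 0.41 without IR (95% interval -0.26 to 1.08) and 0.15 with IR (-0.52 to 0.81). A second probe set gave 0.36 (limma adjusted p = 0.54) and a value of 0.00 to 2 decimals (adjusted p = 0.996).

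*Smad7*, the inhibitory SMAD that TGFβ induces as feedback, read 10.33 and 10.30 in LN without IR, 10.70 and 10.13 in LN with IR, 10.50 and 10.35 in tumor without IR, and 10.98 and 11.02 in tumor with IR. Tumor with IR lay above the other 3 groups, which overlapped. Tumor minus LN was 0.11 without IR (limma adjusted p = 0.831) and 0.58 with IR (adjusted p = 0.135). Its second probe set gave 0.24 (adjusted p = 0.816) and 1.06 (adjusted p = 0.18), with LN IR replicate 2 at 7.40 and LN IR replicate 1 at 8.78.

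The next comparison was between irradiated and unirradiated mice. At 5 h after IR, 0 of the 10 genes had changed in LN T cells, where 1.05% of all genes had, and 0 of 10 in tumor T cells, where 0.0989% of all genes had. Averaged over tissues the count was 0 of 10, beside 0.764% of all genes. At an unadjusted p under 0.05 limma gave 2 of 10 in LN (*Tgfbr1* and *Skil*), beside 14.3% of all genes, 1 of 10 in tumor (*Smad7*), beside 16.6%, and 2 of 10 in the mean (*Tgfbr1* and *Smad7*), beside 24.0%. A robust fit called 1 of 10 in LN (*Tgfbr1*), beside 2.77% of all genes, and 0 in tumor and in the mean. With a replicate block within each tissue, added after the data were seen, limma also called *Tgfbr1* in LN, beside 2.78% of all genes, and 0 of 10 in tumor and in the mean. The 2 IR arrays lay apart from the 2 others on 3 of 10 genes in LN, against 41.3% of all genes, and on 4 of 10 in tumor, against 67.4%, so neither share is above the background.

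**Figure D4:**
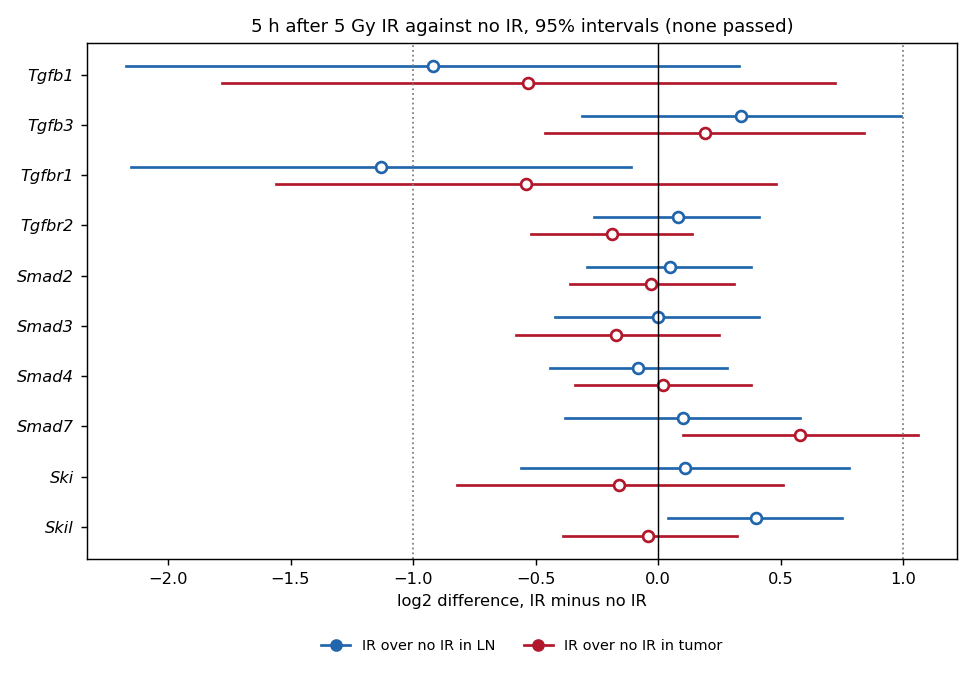
Log2 difference between IR and no IR (x axis) in LN and in tumor T cells for the 10 genes (y axis). Points are limma estimates, bars 95% intervals and dotted lines a difference of 1 in size. No gene passed. The interval lies below 0 for *Tgfbr1* in LN and above 0 for *Skil* in LN and *Smad7* in tumor.

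*Tgfbr1* had the largest IR difference of the 10 in LN T cells, -1.13 (95% interval -2.15 to -0.11, limma adjusted p = 0.303), which did not pass. Both LN IR arrays were under both LN arrays without IR on all 3 of its probe sets. The second probe set read 7.96 and 7.93 without IR and 7.41 and 6.77 with IR (-0.86, adjusted p = 0.341), and the third 7.51 and 7.46 against 6.62 and 6.40 (-0.98, adjusted p = 0.411). The main probe set passed by a robust fit (-1.13, adjusted p = 0.0894), with a replicate block within each tissue (-1.13, adjusted p = 0.0721) and without LN IR replicate 1 (-1.45, adjusted p = 0.097), and was -0.82 without LN IR replicate 2 (adjusted p = 0.637). In tumor T cells it was -0.54 (adjusted p = 0.551), with overlapping groups. The macrophage marker means on the LN arrays were 6.20 and 6.63 without IR and 6.42 and 6.67 with IR.

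For *Skil* the IR difference in LN was 0.40 (95% interval 0.04 to 0.75, limma adjusted p = 0.298) and in tumor -0.04 (adjusted p = 0.925). The second probe set gave 0.51 in LN (adjusted p = 0.226), and on both probe sets the 2 LN IR arrays were the higher. For *Smad7* the IR difference in tumor was 0.58 (0.10 to 1.06, adjusted p = 0.301), with the 2 IR arrays higher on both probe sets, and in LN it was 0.10 (adjusted p = 0.846). None of these passed.

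For *Tgfb1* the IR difference in LN was -0.92 (limma adjusted p = 0.463), and it rested on LN IR replicate 2: it was 0.04 without that array (adjusted p = 0.969) and -1.88 without LN IR replicate 1 (adjusted p = 0.00501). The other *Tgfb1* probe set gave -0.06 (adjusted p = 0.906). In tumor T cells both probe sets were lower on the 2 IR arrays, by -0.53 (adjusted p = 0.635) and -0.34 (adjusted p = 0.412). On their main probe sets *Tgfb3*, *Tgfbr2*, *Smad2*, *Smad3*, *Smad4* and *Ski* differed with IR by -0.08 to 0.34 in LN and -0.19 to 0.19 in tumor. Of the other probe sets of these genes, which *Tgfb3* lacks, some went farther and some did not, and none passed. The largest was the second of *Smad2*, at 0.43 in LN (limma adjusted p = 0.596) and -0.42 in tumor (adjusted p = 0.568).

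Whether the IR difference itself depended on the tissue was tested with limma's interaction term, which passed the adjusted p for 0 of the 10 genes and for 0 of 18193 in all. Its unadjusted p was under 0.05 for 0 of the 10 and for 1024 of all genes (5.63%), and a robust fit also gave 0 of 10. On the main probe sets the term ran from -0.43 for *Skil* (adjusted p = 0.782) to 0.59 for *Tgfbr1* (adjusted p = 0.847). Without LN IR replicate 1 it passed for *Tgfb1* (1.36, adjusted p = 0.0471).

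The other genes of the pathway are 61 listed genes, of which 59 were measured. Between tumor and LN without IR 13 of 59 changed, 11 higher and 2 lower in tumor, where 4.5% of all genes were higher and 1.04% lower. With IR 9 changed, all of them higher, beside 4.8% higher and 2.0% lower of all genes. In the mean 17 did, 14 higher and 3 lower, beside 5.13% and 1.49%. The median difference was 0.20 without IR and 0.14 with IR, where all genes had -0.09 and 0.06. Leaving out 1 array moved the count without IR to 8 (LN no IR replicate 1), 7 (tumor no IR replicate 1) or 8 (tumor no IR replicate 2), and the count with IR to 15 (LN IR replicate 1) or 5 (tumor IR replicate 2).

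Among 11 measured genes of latency and activation 4 were higher in tumor without IR, 5 with IR and 0 lower. *Ltbp4*, a latent TGFβ binding protein of the matrix, was 5.35 to 5.79 in LN and 8.19 to 8.61 in tumor, and differed by 2.84 without IR (limma adjusted p = 0.00084) and 2.76 with IR (adjusted p = 0.00095), from LN levels near the lower quartile. *Thbs1*, thrombospondin 1, which can release active TGFβ, was 6.01 to 6.53 in LN and read 8.01, 9.92, 8.52 and 9.97 on the tumor arrays, differing by 2.82 (adjusted p = 0.0565) and 2.75 (adjusted p = 0.0485). *Itgav*, the αv chain of the integrins that activate latent TGFβ, read 9.44 and 9.40 in LN without IR, 10.04 and 10.10 with IR, 11.66 and 11.45 in tumor without IR and 11.39 and 11.33 with IR, differing by 2.13 (adjusted p = 0.000499) and 1.29 (adjusted p = 0.00332).

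*Ltbp2* and *Ltbp3* are of the same family as *Ltbp4*. *Ltbp2* was under the lower quartile in LN (4.35 to 4.61) and higher in tumor in both IR states, at 6.34 and 5.32 without IR (1.40, limma adjusted p = 0.0683) and 6.51 and 5.92 with IR (1.70, adjusted p = 0.0291). *Ltbp3* was higher with IR (1.39, adjusted p = 0.0469), and without IR it differed by 0.77 and did not pass (adjusted p = 0.285). Matrix proteins of this kind are known products of stromal cells, and the fibroblast marker mean was 5.86 to 6.15 in LN and 8.15 to 8.77 in tumor. Its part in these differences was not tested.

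**Figure D5:**
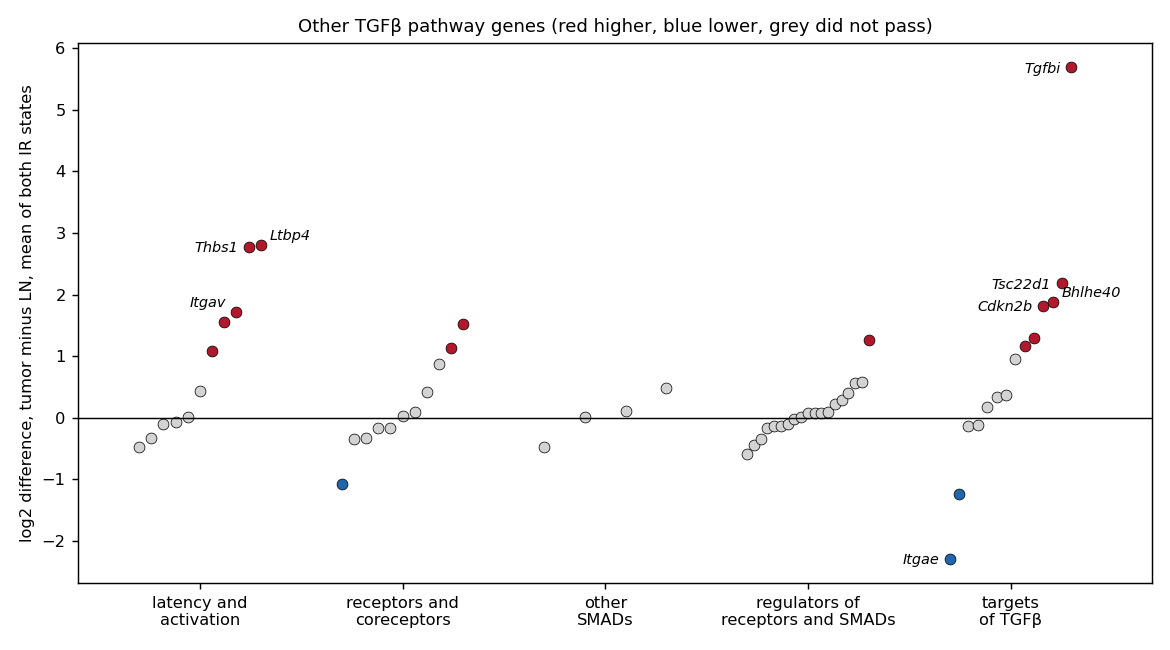
Log2 difference between tumor and LN T cells, mean of both IR states (y axis), for 59 other TGFβ pathway genes in 5 groups by role (x axis). Each point is a gene. Red points were higher, blue points lower and grey points did not pass, and the 8 largest changes are named. Those that passed were 5 of 11 latency genes, 3 of 11 receptors and coreceptors, 0 of 4 other SMADs, 1 of 19 regulators and 8 of 14 targets. Of all genes 6.62% passed, so 0 of 4 says little about the SMADs.

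Among 14 measured target genes of TGFβ 4 were higher and 1 lower in tumor without IR, and 4 were higher and 0 lower with IR. *Tgfbi*, a matrix protein named for its induction by TGFβ, had the largest difference of the list. It was 5.97 to 6.84 in LN and read 11.83, 12.68, 11.42 and 12.31 on the tumor arrays, differing by 5.85 without IR (limma adjusted p = 0.000698) and 5.53 with IR (adjusted p = 0.000808). The tumor arrays kept the order of their macrophage marker means, 10.01, 10.86, 8.68 and 10.08, in that replicate 2 was the higher in each group, and the part of those cells was not tested. *Cdkn2b*, which encodes the cell cycle inhibitor p15, differed by 2.04 (adjusted p = 0.0238) and 1.59 (adjusted p = 0.0463). *Tsc22d1*, a transcriptional regulator that TGFβ induces, differed by 1.63 (adjusted p = 0.0777) and 2.74 (adjusted p = 0.0111).

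*Ccn2*, connective tissue growth factor, was under the lower quartile on all 4 LN arrays (4.79 to 5.05) and read 6.29 and 6.47 in tumor with IR (1.46, limma adjusted p = 0.00349). In tumor without IR *Ccn2* read 5.37 and 5.46 and did not pass. *Id3*, a transcriptional inhibitor that TGFβ can repress, was lower in tumor without IR (8.72 and 9.45 in LN, 6.97 and 6.91 in tumor, difference -2.14, adjusted p = 0.00322) and did not pass with IR (-0.31, adjusted p = 0.484). *Bhlhe40*, a transcription factor of activated T cells, passed in the mean alone (1.88, adjusted p = 0.0733).

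*Itgae*, which encodes the αE integrin chain (CD103) that TGFβ induces in resident CD8+ T cells, was lower in tumor in the mean over IR states (-2.29, limma adjusted p = 0.0302). It read 11.65 and 10.53 in LN without IR, 10.92 and 8.96 in LN with IR, 7.93 and 9.21 in tumor without IR, and 7.40 and 8.36 in tumor with IR. The tissues overlapped by 1 array on each side, and neither single comparison passed (-2.52, adjusted p = 0.123, and -2.06, adjusted p = 0.149).

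Of 19 regulators of receptors and SMADs 1 was higher without IR and 0 changed with IR, beside 5.54% and 6.8% of all genes changed. *Pmepa1*, which sequesters receptor-activated SMADs, read 7.80 and 8.01 in LN without IR and 9.62 and 10.05 in tumor without IR (1.93, limma adjusted p = 0.0471). With IR it differed by 0.59 (adjusted p = 0.466). Of 11 other receptors and coreceptors 2 were higher and 1 lower without IR, and 0 changed with IR. Named after their values were seen, these were the BMP receptors *Bmpr2* (1.53, adjusted p = 0.00521) and *Bmpr1a* (1.12, adjusted p = 0.0155), and *Tgfbr3*, the coreceptor betaglycan, which was lower (-1.37, adjusted p = 0.0318). Of the 4 other SMADs 0 changed in either comparison, too few genes to set apart from the share of all genes. At an unadjusted p under 0.05 limma gave 1 in each, and the share of all genes at that p is not given here.

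After IR 2 of the 59 pathway genes changed in LN T cells, beside 1.05% of all genes, and 0 in tumor T cells, beside 0.0989%. In tumor limma gave 11 at an unadjusted p under 0.05, beside 16.6% of all genes. A robust fit called 3 in tumor, beside 0.973% of all genes. With a replicate block within each tissue the counts were 6 in LN, beside 2.78% of all genes, and 1 in tumor (*Cdkn1a*), beside 0.209%. *Cdkn1a*, which encodes p21 and is a target of both p53 and SMADs, rose in LN from 7.91 and 7.89 to 11.96 and 11.54 (3.84, limma adjusted p = 0.00392). In tumor it read 9.60 and 10.45 without IR and 11.93 and 12.02 with IR (1.95, adjusted p = 0.138), and without IR it was higher in tumor than in LN (2.12, adjusted p = 0.00689). *Tgif1*, a homeobox corepressor of SMAD-bound genes, rose in LN from 9.32 and 9.14 to 11.26 and 11.15 (1.97, adjusted p = 0.00367). In tumor *Tgif1* read 9.74 and 9.67 without IR and 10.43 and 10.37 with IR (0.69, adjusted p = 0.249). The interaction did not pass for *Tgif1* (-1.28, adjusted p = 0.431) or *Cdkn1a* (-1.90, adjusted p = 0.66), and of all 59 it passed for 0. A robust fit gave 2, beside 0.0989% of all genes, and the unadjusted p was under 0.05 for 10, beside 5.63%.

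Averaged over tissues 4 of 59 changed with IR, beside 0.764% of all genes. *Cdkn1a* and *Tgif1* rose and *Myc* and *Nrros* fell. *Myc*, the proliferation factor that TGFβ is known to repress, read 9.73 and 9.85 in LN without IR, 9.31 and 7.87 with IR, 9.79 and 9.64 in tumor without IR and 8.32 and 8.48 with IR (-1.26, limma adjusted p = 0.0963). *Nrros*, which tethers latent TGFβ to the surface of myeloid cells, read 9.68 and 10.25, 8.90 and 8.69, 9.25 and 9.74, and 8.10 and 8.55 in the same order (-1.17, adjusted p = 0.0451). On both genes the IR arrays were lower within each tissue. Of 18 macrophage markers 17 had a value below 0 for IR in tumor (median -1.16) and 5 in LN (median 0.23), with 0 passing in either tissue by limma and 10 and 1 at an unadjusted p under 0.05, and their part in the *Nrros* value was not tested. The averaged count was 2 without LN no IR replicate 2 or without any 1 of the 4 tumor arrays, *Cdkn1a* and *Tgif1* in each case. The counts in LN and in tumor also moved when 1 array was left out, and the share of all genes in such fits is not given here.

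The genes most like the 2 changed members were found by Pearson correlation over the 8 arrays among 9096 genes above the median level. For *Tgfb3* these were *Dsel* (r = 0.98), *Krt14* (0.97) and *Cd44* (0.97), and 181 genes reached 0.9. *Cd44*, the surface marker of the sort, read 11.56, 11.35, 11.65 and 11.62 in LN and 11.87, 11.88, 12.00 and 12.06 in tumor. For *Smad3* they were *S1pr1* (0.999), the sphingosine 1-phosphate receptor that lets T cells leave tissue, *Gpr18* (0.99) and *Rcbtb1* (0.99), and 252 genes reached 0.9. The points are 4 groups of 2 arrays, which share the split between tissues and are not independent of it.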

How the data were processed

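Gene expression was measured on 8 Affymetrix Mouse Genome arrays in 4 groups of 2. The authors processed the scans with RMA (version not given in the sources used here), then deposited 1 table of log2 values for 45101 probe sets, which were used as deposited. Of these, 34945 carry 1 gene symbol in the array annotation, 932 several and 9160 none, and 64 are controls.

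Each gene was represented by its brightest probe set, by the mean over 8 arrays, of those that name no other gene (18193 genes), and every probe set of the 10 genes was also examined. A least squares model of the 4 groups was fitted with limma 3.58.1 (R 4.3.3) over 35877 annotated probe sets with Benjamini-Hochberg adjustment (4 residual and 3.13 prior degrees of freedom). The thresholds are those of the study's methods, which used a robust fit and intersected it with SAM. SAM was not run here. The fit treats tumor and LN pools of the same mice as independent. It was also run on data simulated with independent arrays, which cannot show how the shared mice affect it. Precision is limited by the number of arrays, 2 in each group.

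The members, gene lists and tests were chosen with earlier results of these data known. Pathway genes were named where they were among the 8 largest changes of any comparison, and genes named outside this rule are marked in the text. Values in the other comparisons are given for some of them and not for all. Of 150 listed genes 7 are not analysed here, and *Ctgf* was read as *Ccn2*. Alternatives were a robust fit, array weights, a mean-variance trend, a replicate block, fits on only the arrays compared, other thresholds, the most variable probe set, leaving out the dimmer 50% of genes, cyclic loess, scaling to T cell genes and leaving out each array in turn. A replicate block within each tissue was added after seeing the data. Promoters are those of RefSeq (GRCm38.p6), of which the 250 bases before the start were used.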

Additional observations from a re-analysis of the deposited data

Results flagged for a closer look

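*Tgfbr2* is set apart because both IR arrays moved one way in LN and the other way in tumor. It read 11.85 and 11.91 without IR and 11.92 and 12.00 with IR in LN, and 12.19 and 12.08 without IR and 11.86 and 12.02 with IR in tumor. The IR difference in tumor minus that in LN was -0.26 (95% interval -0.73 to 0.21), which did not pass limma's interaction test (adjusted p = 0.8, unadjusted p = 0.227). The second probe set moved in the same 2 directions, with an interaction of -0.58 (adjusted p = 0.782). Of all 18193 genes 815 (4.48%) have arrays in such opposite order, and 3 of the 59 other pathway genes do (*Itgav*, *Strap* and *Id3*, named after their values were seen).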

How the results depend on the processing

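Of the 1333 member values obtained under the alternatives, 1224 kept their direction and their side of the limits, 6 no longer passed, 24 newly passed, 0 called values reversed, and 79 changed sign without passing in either setting. The cause was not tested for any of these shifts unless the setting itself drops the probe set. The values that kept their direction include many that could not have changed it. Other thresholds reuse the same fit, and leaving out an array of a group not compared leaves the difference as it was. With 2 arrays per group, array weights and a robust fit also left the differences unchanged. The count of kept values is therefore no measure of stability. Without the fold limit 3 of the 10 genes passed without IR, beside 8.32% of all genes, and 3 in the mean over IR states, beside 19.7%. Of the other pathway genes 15 passed with IR, beside 12.9% of all genes, and 26 in the mean, beside 19.7%. With the most variable probe set 2 of the 10 passed without IR. With the dimmer 50% of genes left out, which drops *Tgfb3*, 0 passed without IR, 1 with IR and 0 in the mean. Scaled to T cell genes 2 passed without IR and 1 with IR, and 4 pathway genes passed for IR in LN and 1 for IR in tumor. Of all genes 1396, 1631, 317 and 36 passed in these comparisons, where the main fit gave 1008, 1237, 191 and 18. Under that scaling the median over all genes became 0.19 in place of -0.09 without IR, 0.27 in place of 0.06 with IR, 0.29 in place of 0.01 for IR in LN and 0.31 in place of 0.09 for IR in tumor. The share of changed genes that were higher moved from 81.2% to 91.2%, 70.6% to 86.3% and 74.9% to 94.3% in the first 3 of these. With cyclic loess 2 of the 10 passed in the mean, beside 1240 of all genes, and 1 pathway gene for IR in tumor, beside 25 of all genes. By a robust fit 1 of the 10 and 5 pathway genes passed for IR in LN, beside 2.77% of all genes. For IR in tumor 3 pathway genes passed, beside 0.973%, and for the interaction 2, beside 0.0989%. The main fit called 1.05%, 0.0989% and 0% of all genes in these comparisons. With array weights 3 pathway genes passed for IR in tumor, and with only the arrays compared 3 did, while 0 did for IR in LN. The share of all genes under these settings is not given here.

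When each array was left out in turn, the count among the 10 genes ran from 0 to 2 without IR, 1 to 3 with IR, 0 to 2 for IR in LN, 1 to 2 for tissue in the mean, 0 to 1 for IR in the mean and 0 to 1 for the interaction. Among the other pathway genes it ran from 7 to 17 without IR, 5 to 15 with IR, 2 to 11 for IR in LN, 0 to 2 for IR in tumor, 2 to 5 for IR in the mean and 0 to 3 for the interaction. A lone array is assumed to vary like the others. The share of all genes in these fits is not given here, so the ranges describe the calls alone. Replicate numbers were not taken as pairs over all 4 groups: the differences between the 2 arrays of a group correlated within LN (r = 0.43) and within tumor (0.431), and between tissues at -0.137 to 0.069. With a replicate block the 10 genes gave 1 call without IR, 2 with IR, 1 in the mean and 0 for IR in either tissue, and the pathway genes gave 13, 10, 17, 2 for IR in LN and 0 for IR in tumor. With a replicate block within each tissue, chosen after seeing the data and run for the IR comparisons, 1 of the 10 genes passed for IR in LN (*Tgfbr1*). For IR in LN 6 pathway genes passed, beside 2.78% of all genes, and for IR in tumor 1, beside 0.209%.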
